A study of Homo sapiens with 9 samples.

Results

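The genes described here are 4 members of the IFIT family (interferon-induced proteins with tetratricopeptide repeats: IFIT1, IFIT2, IFIT3 and IFIT5) and 3 members of the IFITM family (interferon-induced transmembrane proteins: IFITM1, IFITM2 and IFITM3). They were chosen by gene symbol and make up 7 of the 60617 genes in the count tables. All 7 were among the 18532 genes that passed the filter on low counts. The cells were PC-3, an established human prostate cancer cell line of epithelial origin that grows without androgen, and their RNA was sequenced in 9 libraries. Of these, 3 were controls (Ctrl), 3 came from cells treated with 1 µM decitabine (Dec) and 3 from cells given the combination treatment of 1 µM decitabine and 200 µM S-adenosylmethionine (SAM; Dec_Sam). The labels of these libraries give a time of 5 days, but in a note on the extraction of DNA, so the time of treatment before RNA was taken is not certain. Both treated groups thus share decitabine, an inhibitor of DNA methyltransferases that is built into DNA, and they differ in SAM, the methyl donor of these enzymes. Libraries of cells given SAM alone and the study's methylation measurements upstream of IFIT5 were not analysed here.

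IFIT proteins bind RNA that lacks the marks of the cell's own messages, such as free triphosphates or caps without ribose methylation, and hold it back from translation. IFITM proteins are short membrane proteins that hinder enveloped viruses from fusing with the membranes of the cell. Both families are classical interferon-stimulated genes: interferon bound to its receptor activates a complex with STAT2 and IRF9, which binds the interferon-stimulated response element (ISRE) in the promoter.

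The IFIT genes lie side by side on chromosome 10, all on the plus strand, in the order IFIT2 (chr10:89283694-89309271), IFIT3 (chr10:89327307-89377473), IFIT1 (chr10:89392546-89406487) and IFIT5 (chr10:89414568-89421605) in GRCh38. The IFITM genes lie at the end of the short arm of chromosome 11, with IFITM2 (chr11:303655-309397) and IFITM1 (chr11:310041-315272) on the plus strand and IFITM3 (chr11:319676-329475) on the minus strand. The canonical transcript of each of the 7 genes has 2 exons.

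RefSeq promoter windows (GRCh38.p14, 250 bases before to 50 bases after the transcription start) were at hand for 5 of the 7 genes, with 2 starts for IFIT3, which gave 6 windows. IFIT2 and IFITM2 were not matched. The stretch around the ISRE cores is shown for each window, because all 6 windows held this element. The stretch also shows where a core and a CpG site, the target of DNA methylation, coincide. Capitals mark the ISRE core, which is GAAA, any 2 bases, GAAA, or on the opposite strand TTTC, any 2 bases, TTTC, and each stretch adds 15 bases on either side, 5′ to 3′ on the strand of the gene.
IFIT5, chr10:89414508-89414588, plus strand: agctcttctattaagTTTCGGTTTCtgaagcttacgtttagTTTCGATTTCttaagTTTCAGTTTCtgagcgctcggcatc
IFIT1, chr10:89392492-89392544, plus strand: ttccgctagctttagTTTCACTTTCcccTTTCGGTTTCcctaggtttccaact
IFIT3 (start 1), chr10:89327826-89327899, plus strand: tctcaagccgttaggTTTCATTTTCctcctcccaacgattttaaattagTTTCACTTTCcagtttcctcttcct
IFIT3 (start 2), chr10:89332420-89332502, plus strand: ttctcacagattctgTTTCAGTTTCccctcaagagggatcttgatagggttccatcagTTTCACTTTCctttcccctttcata
IFITM1, chr11:313985-314058, plus strand: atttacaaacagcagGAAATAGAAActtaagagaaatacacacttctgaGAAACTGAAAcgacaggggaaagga
IFITM3, chr11:320871-320927, minus strand: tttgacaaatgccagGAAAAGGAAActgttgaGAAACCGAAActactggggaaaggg

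All 6 windows held at least 2 ISRE cores, whereas 3.57% of all 35116 promoter windows of the same length held a core and 0.259% held 2 or more. With the first transcribed base counted as 0, IFIT5 had 3 cores that began at bases -45, -19 and -4, so that the last one spanned the transcription start. Of these 3 cores, 2 held a CpG. The IFIT1 window had a CpG in the core that began at -103 and none in the core that began at -116, and the IFITM3 window had a CpG in the core at -35 and none in that at -52. The cores of both IFIT3 windows and of IFITM1 held no CpG. A core with a CpG inside occurred in 0.384% of all windows. Counted over the whole 300 bases, IFIT5 had 16 CpG sites, IFITM3 8, the IFIT3 windows 5 and 1, IFIT1 4 and IFITM1 3, and the median of all windows was 14. The second element searched, GAS (TTC, any 3 bases, GAA, a site of pairs of STAT proteins), was found in the IFITM1 window alone among the 6, beginning at -12 and overlapping the core at the start by 3 bases, and in 7.66% of all windows. These matches describe letters only, and neither binding nor methylation was read from them.

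**Figure D1:**
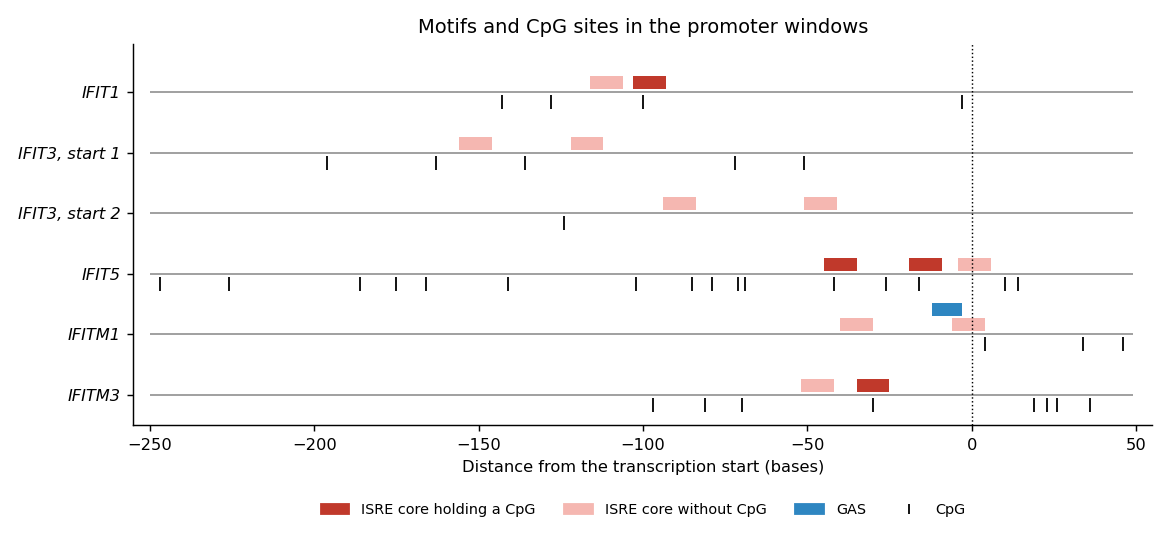
Motifs and CpG sites in the 6 RefSeq promoter windows of IFIT1, IFIT3, IFIT5, IFITM1 and IFITM3, drawn to scale against the distance in bases from the transcription start at 0. Boxes are ISRE cores (dark where they hold a CpG) or GAS, and ticks are CpG sites. IFIT5 has 16 CpG sites and 2 cores with a CpG, and the second IFIT3 window has 1 CpG site.

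Totals lay between 21934307 and 22489684 estimated counts per library, and no pair of libraries within a group looked like copies of each other. Pairs across groups were not checked for copies. The labels do not say that replicates were separate cultures, so p-values measure only the spread between these libraries, which may be technical. The keratin gene KRT18 had 6870 to 8906 counts and the epithelial adhesion gene EPCAM 321 to 589, whereas KLK3, which encodes prostate-specific antigen, had 0 in every library. Of 6 markers of leukocytes and endothelium, 3 passed the filter (PTPRC, PECAM1 and VWF) and all 3 rose with decitabine and with the combination. The summed count of the 6 was 199 to 210 in the Ctrl libraries, 751 to 1007 in the Dec libraries and 877 to 1015 in the Dec_Sam libraries, most of it from PECAM1. CD3E had 0 to 2 counts and ITGAM 0 to 3. Their part in the results on the members was not tested. In bulk RNA, fewer cells that express a gene and less RNA per cell cannot be told apart.

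Replicate 3 of the combination stood apart in interferon-stimulated genes. At the median of all genes tested, its level was 0.998 times the mean of combination replicates 1 and 2. The scaling of the libraries sets this median near 1, so it does not show how far other genes differed. In the 7 members the level was 1.07 to 4.1 times that mean (median 2.46), and in 30 other interferon-stimulated genes 1.25 to 8.71 times (median 2.83). The levels, medians and calls of the members with the combination are therefore given with and without this library. It was singled out for these same levels, so lower combination levels and changed p-values without it follow in part from that choice.

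Decitabine upregulated all 7 members, by 1.79-fold (IFIT5) to 56.3-fold (IFITM1) in mean level. Over all genes tested, 36.3% were called higher and 32.5% lower with decitabine at an adjusted p under 0.05, so a call alone was common, and the members differed from each other mainly in size. In all 7 the decitabine libraries lay above every control library, as in 38.1% of all genes. The members' median log2 fold change was 3.10, beside 0.035 over all genes tested. Levels are CPM, counts relative to library size, scaled by TMM, under which most genes are taken as equal between libraries.

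IFIT1, which binds RNA with an unmethylated cap, stood at 35.3, 37.6 and 25.3 CPM in the Ctrl libraries, at 762, 603 and 575 CPM in the Dec libraries and at 88.6, 96.7 and 255 CPM in the Dec_Sam libraries. The 3 groups did not overlap. Decitabine raised IFIT1 by 4.30 on the log2 scale (SE 0.50, adjusted p = 0.00026, edgeR's quasi-likelihood test), from 32.7 ± 6.54 to 646 ± 101 CPM (mean ± SD, n = 3).

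IFIT2, which pairs with IFIT1 and IFIT3 in a complex, was measured at 39.7, 42.7 and 37.8 CPM in Ctrl, 558, 464 and 407 CPM in Dec and 68.8, 77.1 and 179 CPM in Dec_Sam. These groups did not overlap either. The log2 fold change with decitabine was 3.57 (SE 0.41, adjusted p = 0.00023).

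IFIT3, which steadies IFIT1 and strengthens its hold on RNA, had 43.4, 44.5 and 36.6 CPM in Ctrl, 422, 324 and 323 CPM in Dec and 39.8, 48.8 and 140 CPM in Dec_Sam. Here the first combination library lay within the range of the controls, and the second was 1.18 times the control mean. The decitabine libraries were well above both other groups, with a log2 fold change of 3.10 over the controls (SE 0.51, adjusted p = 0.0016).

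IFIT5, which binds triphosphate RNA on its own and does not join the complex, had 31, 30.5 and 29.6 CPM in Ctrl, 62.8, 53.9 and 46.5 CPM in Dec and 25.1, 25.3 and 31.2 CPM in Dec_Sam. Its controls had the smallest SD of the 7 genes (0.742 CPM, n = 3), and its mean fold was also the smallest. It rose by 0.84 on the log2 scale with decitabine (SE 0.11, adjusted p = 1.1e-05). IFIT5 thus ranked 4712 of 18532 genes from the top of the fold changes, IFITM2 4097, and the 5 other members between 627 and 2706.

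IFITM1, found at the cell surface, had the lowest control level, with 10.7, 10.2 and 4.35 CPM (216, 204 and 88.2 counts). It reached 440, 459 and 526 CPM in Dec and 41.2, 49 and 185 CPM in Dec_Sam. Control replicate 3 was the lowest and combination replicate 3 the highest of their groups, and the groups did not overlap. The log2 fold change with decitabine was 5.82 (SE 0.78, adjusted p = 0.0006), at rank 627 of all genes tested.

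IFITM2, which resides with IFITM3 in endosomes, had 92.3, 103 and 94.7 CPM in Ctrl, 203, 198 and 221 CPM in Dec and 142, 141 and 152 CPM in Dec_Sam. IFITM3, the member best known for restricting influenza virus, had 162, 172 and 146 CPM, 556, 625 and 652 CPM, and 242, 253 and 359 CPM in the same order. In both genes the 3 groups were fully separated, with the combination between the others. Decitabine raised IFITM2 by 1.10 (SE 0.07, adjusted p = 1.3e-08) and IFITM3 by 1.93 (SE 0.14, adjusted p = 2.3e-07) on the log2 scale. The call on decitabine held in all 7 genes whichever of the 9 libraries was left out.

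**Figure D2:**
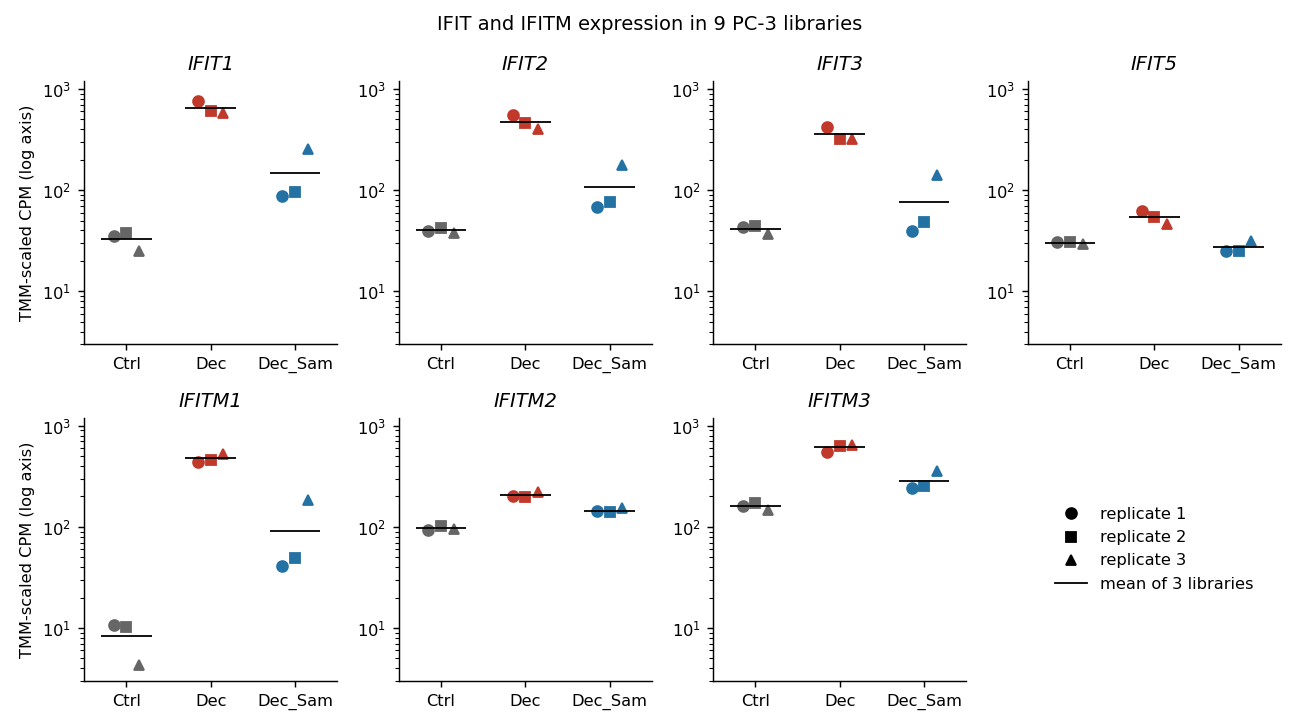
TMM-scaled CPM on a log axis for the 7 genes in the control (Ctrl), decitabine (Dec) and combination (Dec_Sam) libraries, with 1 point per library, shaped by replicate number, and a line at the mean of 3. Every decitabine library lies above every control library, and combination replicate 3 is the highest of its group in each gene, at 1.07 (IFITM2) to 4.1 (IFITM1) times the mean of the other libraries of that group.

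The values of the IFITM genes rest on the division of shared reads. Of the distinct 31-base words in the GENCODE transcripts of IFITM1, 44.5% also occurred in another gene, as did 30.1% in IFITM2 and 41.8% in IFITM3. With the other IFITM members alone the shares were 26.2%, 23.7% and 19.7%. In IFIT1, IFIT3 and IFIT5 they were 3.49%, 8.14% and 0.068%, and in IFIT2 10.9%, of which 10.1% fell to an overlapping lncRNA (ENSG00000232110) with 46 to 308.5 counts. The split among IFITM1, IFITM2 and IFITM3 is therefore uncertain, and their sum is less so. The sum of the 3 was 265 ± 20.1 CPM in Ctrl, 1290 ± 100 CPM in Dec and 522 ± 151 CPM in Dec_Sam (mean ± SD, n = 3). The sum of the 4 IFIT genes was 145 ± 13.6, 1530 ± 240 and 359 ± 214 CPM. Without combination replicate 3 the mean of the Dec_Sam sums was 435 CPM for the IFITM genes and 235 CPM for the IFIT genes (n = 2).

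Per kilobase of canonical transcript, IFITM3 had the highest level in each group, at 262 ± 21.4 CPM per kb in Ctrl, 1000 ± 80.9 in Dec and 466 ± 106 in Dec_Sam (406 without combination replicate 3). IFITM1 moved from the fourth place in the controls (12.6 ± 5.31 CPM per kb, not apart from IFIT2 at 11.8 ± 0.722 or IFIT3 at 17.4 ± 1.78) to the second with decitabine (711 ± 67.6), above IFITM2 at 206 ± 11.7. IFIT1, IFIT2 and IFIT3 were alike with decitabine, at 150 ± 23.5, 140 ± 22.5 and 149 ± 23.7 CPM per kb, and their libraries overlapped. IFIT5 was the lowest in each group, at 7.54 ± 0.184, 13.5 ± 2.02 and 6.76 ± 0.859 CPM per kb (the last 6.26 without combination replicate 3), although in the controls it overlapped with IFIT1 at 7.6 ± 1.52. With the longest transcript, which has 4013 bases in IFIT3 against 2390 for the canonical one, the decitabine means of IFIT1, IFIT2 and IFIT3 were 140, 129 and 88.7 CPM per kb, so that IFIT3 was no longer level with the others. IFITM3 and IFITM1 then stood at 585 and 563 CPM per kb with decitabine, and the places of the IFIT genes and IFITM1 shifted in the controls.

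The next comparison asked what SAM changed when it was added to decitabine. All 7 members were lower with the combination than with decitabine alone, without overlap between the libraries, as in 16.8% of all genes tested. The mean level was 19.3% of the decitabine mean in IFITM1, 21.4% in IFIT3, 22.7% in IFIT1, 22.8% in IFIT2, 46.6% in IFITM3, 50% in IFIT5 and 70.2% in IFITM2. The shares without combination replicate 3 were 9.5%, 12.4%, 14.3%, 15.3%, 40.6%, 46.4% and 68.5% in the same order. Of the 7, 6 passed the test, while 8.02% of all genes were called lower and 7.67% higher. The members' median log2 fold change was -2.13, beside 0.002 over all genes tested, and -2.70 beside -0.002 without combination replicate 3.

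The 3 members with the smallest SEs had the smallest log2 fold changes. These were -1.0 for IFIT5 (SE 0.11, adjusted p = 0.00031), -0.51 for IFITM2 (SE 0.07, adjusted p = 0.00086) and -1.10 for IFITM3 (SE 0.14, adjusted p = 0.00088). These calls held without any 1 of the 9 libraries. IFIT1 had -2.14 (SE 0.45, adjusted p = 0.026), IFIT2 -2.13 (SE 0.38, adjusted p = 0.015) and IFIT3 -2.23 (SE 0.49, adjusted p = 0.031), and these calls depended on single libraries. Without combination replicate 3 the same log2 fold changes were -2.80, -2.70 and -3.01, with adjusted p of 1.9e-05, 2.5e-08 and 4e-07. IFITM1 had a log2 fold change of -2.37 (SE 0.64, 95% interval -3.92 to -0.83 before adjustment), which missed the threshold at an adjusted p of 0.055. It was -3.40 without combination replicate 3 (adjusted p = 0.00071), and the sum of the IFITM counts gave -1.31 (adjusted p = 0.002).

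The count of members called in this comparison was 7 without combination replicate 3. It was 3 without decitabine replicate 1, decitabine replicate 2 or combination replicate 2, 4 without combination replicate 1, and 5 without any of the 4 other libraries. The IFIT1 call was lost without decitabine replicate 1 or 2 or combination replicate 1 or 2 (adjusted p of 0.075, 0.079, 0.075 and 0.094). The IFIT2 call was lost without decitabine replicate 1 or 2 or combination replicate 2 (0.05, 0.057 and 0.061). The IFIT3 call was lost without any library other than combination replicate 3, at adjusted p of up to 0.11.

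**Figure D3:**
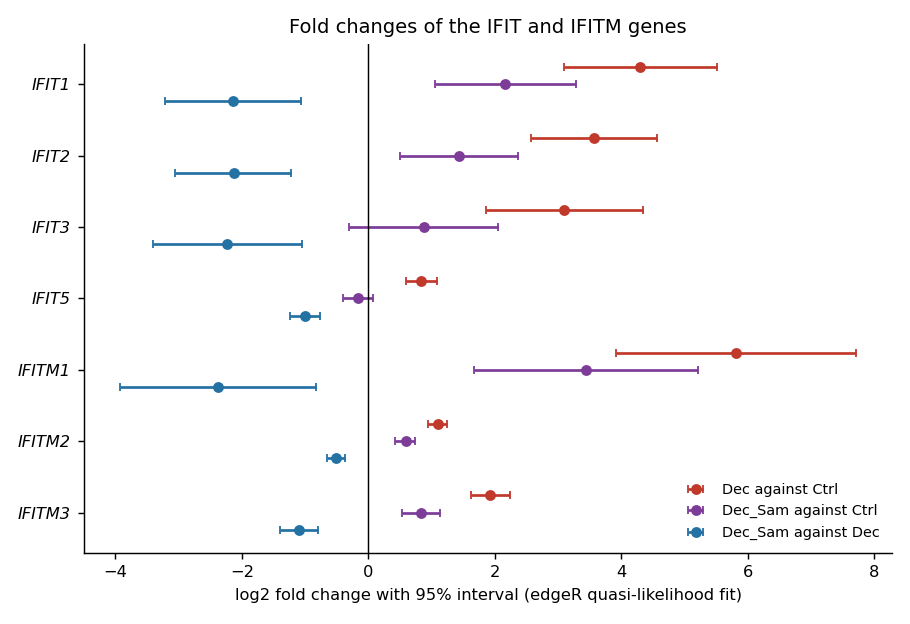
Log2 fold changes of the 7 genes in the 3 comparisons, from edgeR's quasi-likelihood fit over 9 libraries, with bars for the 95% interval before adjustment. The IFIT3 and IFIT5 intervals of the combination against the controls reach across 0 (-0.31 to 2.06 and -0.40 to 0.08), and those of IFIT5 and IFITM2 are the narrowest.

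Against the controls, the combination left 5 of the 7 members upregulated, and the same 5 had libraries that did not overlap with the controls. Over all genes tested, 35.9% were called higher, 31.3% lower, and 38% lay higher without overlap, so the members' share was above these but is a count of 7. This comparison uses the same controls as that of decitabine and the same combination libraries as the last one, and the values are not independent of them. IFITM1 was higher by 3.45 (SE 0.73, adjusted p = 0.0056) and IFIT1 by 2.17 (SE 0.46, adjusted p = 0.0055) on the log2 scale. IFIT2 was higher by 1.44 (SE 0.39, adjusted p = 0.015), IFITM3 by 0.83 (SE 0.14, adjusted p = 0.00019) and IFITM2 by 0.59 (SE 0.07, adjusted p = 5.8e-06). Without combination replicate 3 these became 2.42, 1.5, 0.86, 0.63 and 0.55, and all 5 remained past the threshold. The IFIT2 call was lost without control replicate 3 (1.39, adjusted p = 0.051).

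IFIT3 and IFIT5 did not pass. IFIT3 had a log2 fold change of 0.88 (SE 0.49, 95% interval -0.31 to 2.06, adjusted p = 0.16), and 0.09 without combination replicate 3 (adjusted p = 0.6). IFIT5 had -0.16 (SE 0.11, 95% interval -0.40 to 0.08, adjusted p = 0.23), so a rise of the size seen with decitabine lay outside the interval. With the scaling by library size alone the sign of IFIT5 turned (0.07, adjusted p = 0.63). Without combination replicate 3 it was -0.27 and passed the test as lower (adjusted p = 0.047).

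Upstream of the members, transcripts of interferons themselves were few. IFNB1, which encodes interferon beta, had 1, 1 and 0 counts in Ctrl, 13, 10 and 27 in Dec and 0, 2 and 16 in Dec_Sam. It passed the test with decitabine (adjusted p = 0.0088) and in neither comparison of the combination (0.11 and 0.25), although it passed as lower than with decitabine when combination replicate 3 was left out (0.0061) and as higher than the controls when combination replicate 1 was (0.019). The lambda interferon gene IFNL1 had 0 to 1, 7 to 22 and 3 to 4 counts and did not pass the filter. IFNA1 and IFNG had no counts. Of 14 genes for interferons and their receptors 8 were tested, of which 3 rose (IFNB1, IFNGR1 and IL10RB) and 2 fell (IFNAR1 and IFNE) with decitabine. The shares called over all genes tested were 36.3% higher and 32.5% lower. For the receptor of type I interferon, IFNAR1 had a log2 fold change of -0.29 (adjusted p = 0.0047) and IFNAR2 of -0.08 (adjusted p = 0.5) with decitabine. IFNE alone changed between the combination and decitabine, by 1.19 at 11 to 36 counts per library (adjusted p = 0.029), and this call was lost without any of the 3 decitabine libraries or combination replicates 1 and 2, at adjusted p of up to 0.12.

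Transcripts of the complex that binds the ISRE were also highest with decitabine. STAT2 was at 67.2, 58.1 and 52.9 CPM in Ctrl, 294, 240 and 260 CPM in Dec and 66.9, 71.3 and 140 CPM in Dec_Sam. STAT2 and IRF9 rose by 2.16 and 2.21 on the log2 scale with decitabine (adjusted p = 0.00048 and 5.1e-08). Between the combination and decitabine they had -1.51 and -1.13 (adjusted p = 0.017 and 0.0006), and the STAT2 call was lost without decitabine replicate 1 or 2 or combination replicate 1 or 2. Of 11 genes of signalling to the ISRE, 9 rose with decitabine and 1 fell (TYK2, a receptor-bound kinase, -0.38), with a median of 2.16. Between the combination and decitabine the same list had 9 lower and none higher, with a median of -0.91 (-1.24 without combination replicate 3). That count was 4 or 5 when decitabine replicate 1 or 2 or combination replicate 1 or 2 was left out, and 8 or 9 otherwise. Against the controls the combination had 6 higher and 1 lower, and 6 and 2 without combination replicate 3. Of 10 tested genes that sense foreign nucleic acid, 6 rose and 1 fell with decitabine, from TLR3, a receptor for double-stranded RNA (0 to 4 counts in Ctrl, 71 to 83 in Dec and 3 to 35 in Dec_Sam), to the adaptor MAVS at -0.41. Against the controls the combination had 8 higher and 2 lower (5 and 2 without combination replicate 3), and against decitabine none higher and 4 lower. This last count was 1 without decitabine replicate 2, combination replicate 1 or combination replicate 2, and 7 without combination replicate 3.

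Of 30 other interferon-stimulated effector genes, all 30 rose with decitabine (median 4.13 on the log2 scale), from EPSTI1 at 6.86 (1 to 4 counts per control library) to the kinase gene EIF2AK2 at 0.73. Against the controls 24 were higher with the combination (median 2.10), and against decitabine 25 were lower (median -2.05), with none in the other direction. The members' medians for the same comparisons, 3.10, 0.88 and -2.13, lay below these in the first 2 and close to it in the last. Without combination replicate 3 the medians of the effectors were 1.43 against the controls and -2.69 against decitabine, and those of the members 0.63 and -2.70. The count of 25 was 30 without combination replicate 3. It was 17, 14 and 17 without control replicate 1, 2 or 3, and 9, 8 and 14 without decitabine replicate 1, 2 or 3. Without combination replicates 1 and 2 it was 11 and 5. The calls against the controls, in either direction, numbered 15, 16 and 14 without control replicate 1, 2 or 3, and 20 to 27 without any of the others. The 27 without combination replicate 3 were 25 higher and 2 lower. An ISRE core was found in the windows of 17 of the 26 effector genes with a RefSeq promoter.

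**Figure D4:**
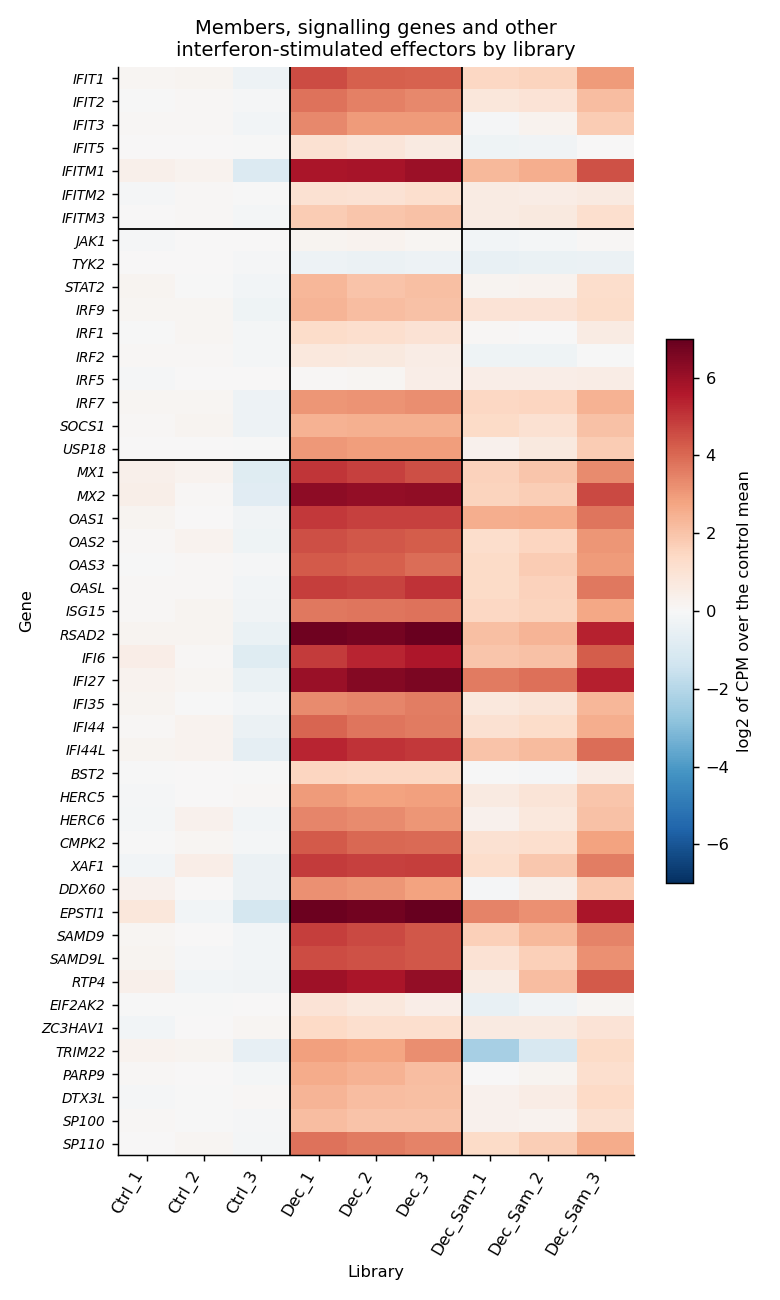
Log2 of CPM over the control mean in the 9 libraries for the 7 members, 10 genes of signalling to the ISRE and 30 other interferon-stimulated effectors, which are separated by lines. In the 7 members the 3 decitabine columns are the darkest, and combination replicate 3 is nearer to them than combination replicates 1 and 2.

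Genes beside the members on their chromosomes were mixed. LIPA, a lipase gene that runs opposite to IFIT2, IFIT3 and IFIT1 and overlaps all of them, rose by 0.52 with decitabine (adjusted p = 2.7e-05) and had -0.19 between the combination and decitabine (adjusted p = 0.093). This overlap is one of whole gene spans. The canonical LIPA transcript starts at chr10:89251775 on the minus strand and so lies wholly before IFIT2, which begins at 89283694. Of the distinct transcript words of IFIT3 compared above, 1.24% also occurred in LIPA. LIPA was not among the genes listed as sharing the most words with IFIT1 or IFIT2. Whether the counting used strand is not given in the sources used here, so reads from words shared with LIPA may not be told apart. The 4 tested neighbours of the IFIT genes (LIPA, SLC16A12, PANK1 and KIF20B) included 3 that rose and 1 that fell with decitabine (median 0.51) and none that passed edgeR's test between the combination and decitabine, where 3 had an unadjusted p under 0.05 and voom with limma called 1. Of 9 tested neighbours of the IFITM genes 2 rose and 4 fell with decitabine (median -0.19), from ANO9 at 2.20 to B4GALNT4 at -1.31. Between the combination and decitabine 3 were lower (BET1L, RIC8A and PKP3), of which BET1L was lost without decitabine replicate 2 or combination replicate 2. The shares over all genes tested were 36.3% higher and 32.5% lower with decitabine, and 7.67% and 8.02% between the combination and decitabine. Whether these lists of 4 and 9 neighbours differ from those shares was not tested. No window of the 5 IFIT and 6 IFITM neighbours with a RefSeq promoter held an ISRE core. The family relatives IFIT1B, IFIT1P1, IFITM4P, IFITM5, IFITM9P and IFITM10 had 0 to 8 counts and did not pass the filter.

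Proteins that work with the members were mixed. Of 9 genes for cap synthesis, cap removal and the eIF3 translation factor, on which the reach of IFIT proteins depends, 2 rose (CMTR1 and XRN1) and 5 fell with decitabine, from CMTR1 at 0.56 to PCIF1 at -1.07. CMTR1, the enzyme that methylates the first ribose after the cap, and the exonuclease gene XRN1 were both lower with the combination than with decitabine (-0.61 and -0.92, adjusted p = 0.0022 and 0.0067), and the capping enzyme gene RNGTT was higher (0.25, adjusted p = 0.045), a call lost without any library other than control replicate 1. The XRN1 call with decitabine was lost without any of the 6 libraries compared. Of 8 genes for partners and modifiers of IFITM proteins, 3 rose and 2 fell with decitabine, within 0.32 (the protease gene ZMPSTE24) and -0.27 (the palmitoyltransferase gene ZDHHC20). Both of these were higher with the combination than with decitabine, ZMPSTE24 not without decitabine replicate 2 or combination replicate 1 or 2, and no gene of this list was lower. Among all genes tested, 36.3% were called higher and 32.5% lower with decitabine, and 7.67% and 8.02% between the combination and decitabine. Whether these lists of 9 and 8 genes differ from those shares was not tested.

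Across the 9 libraries, the log2 levels of the members followed each other with Pearson's r from 0.71 (IFIT5 and IFITM2) to 0.992 (IFIT1 with IFIT2 and with IFITM1). These are descriptions over 9 points that share 3 groups, so that any gene with the same order of groups gives a high r. The genes with the pattern most like IFIT1 were IFI44, RIGI and OAS2 (r of 0.999, 0.9989 and 0.9988). PLSCR1 and CMPK2 were among the 3 nearest to IFIT2 (0.9981 and 0.9975), and PARP9, CLTRN and STAT2 to IFIT3 (0.9965, 0.996 and 0.9955). IFITM1 was followed most closely by IRF7, PTPRH and IFI6 (0.9983, 0.9974 and 0.9972), and IFITM3 by HLA-E, LAMP3 and BLZF1 (0.9978, 0.995 and 0.9942). IFITM2 had SECTM1, LY6E and the unnamed gene ENSG00000287185 (0.996, 0.9929 and 0.9927). IFIT5 differed in its neighbours, with the caspase gene CASP8, the gamma-secretase gene NCSTN and TTC28-AS1 (0.9877, 0.9855 and 0.9852). CASP8 stood at 66.0, 110 and 64.0 CPM as group means, where IFIT5 stood at 30.4, 54.4 and 27.2 CPM.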

How the data were processed

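RNA-seq of 9 PC-3 libraries was grouped by the treatment labels. According to the sources, the authors trimmed reads with Trim Galore 0.6.4 and related them to GRCh38.p13 with kallisto. The values the authors deposited are estimated counts without normalization, by Ensembl gene. The deposited log2 CPM tables were not used. Decitabine and SAM doses come from the study's methods. Counts were rounded, and the 18532 genes past filterByExpr went into edgeR (version 4.0.16, R version 4.3.3; TMM scaling, robust quasi-likelihood test, 1 mean per group over all 9 libraries), with Benjamini-Hochberg adjustment over all genes tested at a threshold of 0.05. This code was tested on simulated data. The study's methods name voom and limma, which were an alternative beside DESeq2 1.42.0. Other alternatives changed scaling, filter, samples and fold threshold. ISRE cores, GAS and CpG sites were counted on both strands of RefSeq promoter windows, and shared 31-base words in GENCODE release 44 transcripts. The 7 members are always named. Of each context list the extremes with decitabine are named, cluster neighbours, relatives, interferons and signalling genes may be named in full, and so are the 3 genes most like each member. Members and lists were chosen with earlier results of these data known. A few genes are not reported here.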

Additional observations from a re-analysis of the deposited data

How the results depend on the processing

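All 7 members stayed upregulated by decitabine under the 18 alternatives that test them singly, except that IFIT5 at 0.84 is below a log2 fold change of 1 where that is also required. With that threshold 3 members passed for the combination against the controls. With the IFITM counts summed there are 5 features in place of 7, of which 5 passed with decitabine, 3 for the combination against the controls (IFIT1, IFIT2 and the sum) and 5 between the treatments. With only the 6 libraries compared, 3 members and 10 of the 30 effectors passed between the combination and decitabine. For IFITM1 in that comparison DESeq2 gave an adjusted p of 0.0038 and voom with limma 0.0018. Scaling by library size alone moved the log2 median over all genes from 0.035 to 0.28 (decitabine) and from 0.048 to 0.27 (combination against controls). Calls over all genes then went from 6729 higher and 6030 lower to 8849 and 3746 in the first comparison, and from 6647 and 5799 to 8695 and 3857 in the second, and IFIT5 in the combination against the controls turned to 0.07. Requiring a log2 fold change over 1 left 4208 higher and 1139 lower, 3962 and 1216, and, between the treatments, 74 and 323 of 1421 and 1487. Leaving out 1 library at a time gave 7 members with decitabine, 4 to 6 for the combination against the controls (the 6 include IFIT5 as lower) and 3 to 7 between the treatments, and 30, 14 to 27 and 5 to 30 effectors. Over all genes it gave 381 to 2066 higher and 480 to 1997 lower calls between the treatments. The cause of these changes was not tested, beyond the fewer samples that a smaller fit holds.

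Replicate numbers are shared between groups in the labels, and whether they pair the libraries is not certain. The correlation of same-numbered deviations was -0.014, -0.017 and 0.018 for controls and decitabine, and 0.069, -0.004 and 0.058 for controls and combination. For decitabine and combination it was 0.233, 0.036 and 0.229. Differently numbered libraries of these 2 groups had -0.22 to 0.014, all below the same-numbered values. With the replicate block, 7, 5 and 4 members and 30, 21 and 18 effectors passed, and IFIT1 (-2.22, adjusted p = 0.056) and IFIT3 (-2.35, adjusted p = 0.054) missed the threshold between the treatments. Calls over all genes between the treatments went from 1421 higher and 1487 lower to 1766 and 1890. Between the controls and either treated group, not every library correlated best with its own number. Between decitabine and the combination each library did.

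Depth limits the interferon genes, with 36 counts or fewer in each library, more than the members, which had at least 88.2 counts.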

Other observations

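Genes of the epithelial-mesenchymal transition, a process to which IFIT5 has been linked in prostate cancer, were also examined. Of 8 such genes, 4 rose with decitabine (CDH1, SNAI1, ZEB2 and CDH2) and 3 fell (SNAI2, VIM and ZEB1), and the same counts of 4 and 3 were found for the combination against the controls. Over all genes tested, 36.3% were called higher and 32.5% lower with decitabine. With the combination against the controls these shares were 35.9% and 31.3%, so the counts do not set the 8 genes apart. The epithelial cadherin gene CDH1 had 37, 40 and 36.5 counts in the controls, 323, 344 and 352 with decitabine and 349, 409 and 413.9 with the combination. Between the combination and decitabine edgeR's quasi-likelihood test called none of the 8 (5 had an unadjusted p under 0.05), with CDH1 at 0.24 (unadjusted p = 0.038, adjusted p = 0.13) and the mesenchymal filament gene VIM at -0.21 (unadjusted p = 0.027, adjusted p = 0.11). The count was not stable: 8 of 19 alternatives called 1 or 2 of the genes, among them DESeq2 with 1. Without combination replicate 3 it was 2 (ZEB1 and CDH2, both lower), and without decitabine replicate 3 it was also 2 (VIM, lower, and SNAI1, higher).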
